A study of Saccharomyces cerevisiae with 31 samples.

Results

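Genes that charge and modify transfer RNA were measured in Saccharomyces cerevisiae, budding yeast, while arrested cells kept growing. The group was chosen by name from a deposited table of 6713 genes, and all 53 members have a row in it. It holds 20 genes of the aminoacyl-tRNA synthetases, counting the synthetase cofactor gene ARC1, and 33 genes for enzymes that modify tRNA. The modification genes comprise 14 genes of methyltransferases and their partner subunits, 4 for dihydrouridine synthases, 6 for pseudouridine synthases, 3 for adenosine deaminases and 6 for subunits of Elongator.

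A synthetase joins an amino acid to the tRNA that reads its codon, and the charged tRNA then brings the amino acid to the ribosome. Modification enzymes change bases or riboses of the tRNA itself. Changes in the anticodon loop tune how codons are read, and changes in the body of the molecule help it fold and last. In yeast many genes of translation and ribosome building are known to be switched together with growth, and the promoter elements PAC and RRPE, bound by factors that include Dot6, Tod6 and Stb3, are known from that programme.

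The 31 RNA-seq libraries fall into 6 series. In Cdc28-as cells the cell-cycle kinase Cdc28 is replaced by an analog-sensitive version that 1NM-PP1 inhibits. In 3 experiments Cdc28-as cells were sorted by size through elutriation and then given 1NM-PP1. Experiment 1 covered 15.23 to 50.77 fl (femtolitres of cell volume) in 5 libraries, experiment 2 covered 14.92 to 41.8 fl in 3 libraries, and experiment 3 covered 18.61 to 66.46 fl in 3 libraries. A further Cdc28-as culture was not elutriated and was followed after 1NM-PP1 from 21.56 to 44.02 fl in 8 libraries. Wild-type (WT) cells, labelled with the same treatments, gave an elutriated control (6 libraries, 2 to 7 h) and one without elutriation (6 libraries, 0 to 6 h). WT libraries are labelled by time and not by size. All cultures grew in rich medium with ethanol, and all received a known amount of Candida albicans cells before RNA extraction. Whether the experiments were separate cultures is not stated, so p-values measure only the spread between these experiments.

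The table holds 1 scaling score per gene and series and no value per library. For a gene seen only in the first library, the slope on labelled size of abundance set to 1 in that library is -0.0197 per fl in experiment 1, and 104 genes hold that score. In experiment 3 the same slope is -0.0218 per fl and 111 genes hold it. In the WT series the slope on hours is -0.143 per hour, held by 96 genes of the elutriated control, and -0.106 per hour, held by 44 genes of the unelutriated one. Scores were therefore read as slopes relative to the first library, in units of 1 per fl for Cdc28-as and 1 per hour for WT. For experiment 2 and the unelutriated arrest this was assumed, since only 2 and 3 genes hold such a value there, -0.0341 and -0.0174 per fl. The median gene of the unelutriated arrest, at -0.0202 per fl, lies below that value, so the reading as slopes is uncertain for that series. Over genes scored in all 3 experiments the median gene scored 0.00735, 0.0110 and 0.00178 per fl in experiments 1, 2 and 3, and in the unelutriated arrest -0.0202 per fl, so a score is best read against the median gene of its own series. Below, a gene is called above or below the median gene where its score is higher or lower than that of the median gene of the series, and its percentile is its place among all scored genes of the series. These are bulk samples, so a change in the mix of cells and a change in RNA per cell cannot be told apart. The sources used here do not tell whether the scores are library shares or amounts set against Candida RNA.

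The promoters of the group show how its members differ in sequence, and 4 are printed because they carry the motif patterns on which the classes differ. The sequences are the 250 bases before the start codon, 5′ to 3′ on the strand of the gene, from the R64 reference, and capitals mark a match to the PAC core GATGAG or the RRPE core AAAATTT on either strand. The gene of the dihydrouridine synthase Dus1 (chrXIII:108556-108805, plus strand) and that of the Elongator catalytic subunit Elp3 (chrXVI:386447-386696, minus strand) have both motifs. GCD10 (chrXIV:510213-510462, minus strand), which encodes a subunit of a methyltransferase of the T loop, has 3 matches of each. DED81 (chrVIII:143559-143808, minus strand), the asparaginyl-tRNA synthetase gene, has RRPE matches alone. Where AAAATTT is followed by a further T, its reverse complement AAATTTT overlaps it, and such a pair counts as 2 matches.
DUS1: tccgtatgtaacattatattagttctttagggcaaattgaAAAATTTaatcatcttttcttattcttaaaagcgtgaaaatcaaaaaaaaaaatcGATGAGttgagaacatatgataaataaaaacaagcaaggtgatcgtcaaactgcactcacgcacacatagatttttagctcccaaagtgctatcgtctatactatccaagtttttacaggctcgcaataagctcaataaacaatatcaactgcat
ELP3: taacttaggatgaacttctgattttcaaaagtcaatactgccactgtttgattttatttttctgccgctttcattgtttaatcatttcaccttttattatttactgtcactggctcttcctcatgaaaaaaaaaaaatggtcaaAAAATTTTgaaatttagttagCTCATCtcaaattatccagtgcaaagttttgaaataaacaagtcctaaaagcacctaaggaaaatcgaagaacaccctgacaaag
GCD10: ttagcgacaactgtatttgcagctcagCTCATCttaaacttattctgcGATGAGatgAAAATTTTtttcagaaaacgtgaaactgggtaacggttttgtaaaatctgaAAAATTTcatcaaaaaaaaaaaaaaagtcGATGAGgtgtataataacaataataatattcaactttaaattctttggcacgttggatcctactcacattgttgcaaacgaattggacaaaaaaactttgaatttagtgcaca
DED81: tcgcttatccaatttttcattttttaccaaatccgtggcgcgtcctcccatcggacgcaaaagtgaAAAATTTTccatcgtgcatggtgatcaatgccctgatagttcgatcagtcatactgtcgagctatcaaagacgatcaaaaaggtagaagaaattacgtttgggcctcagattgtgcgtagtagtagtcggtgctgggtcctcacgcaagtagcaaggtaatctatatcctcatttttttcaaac

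The classes had different promoter motifs. The PAC core stood in 3 of 20 synthetase promoters (15%) and in 22 of 33 modification promoters (66.7%), against 1022 of 6001 promoters of the same length over the genome (17.0%). The RRPE core stood in 16 of 20 synthetase promoters (80.0%) and in 16 of 33 modification promoters (48.5%), against 1301 of all promoters (21.7%). Synthetase promoters thus carried RRPE mostly without PAC, while 10 of the 33 modification promoters (30.3%) and 1 of the 20 synthetase promoters (5.00%) carried both, against 6.63% of all promoters. Among the modification families PAC was found before 5 of 6 pseudouridine synthase genes, 3 of 4 dihydrouridine synthase genes, 9 of 14 methyltransferase genes, 2 of 3 deaminase genes and 3 of 6 Elongator genes. The core of the site of Gcn4, TGACTCA, was found in 0 of the 53 promoters and in 2.17% of all promoters, so the members' share was near that of all promoters. For scale, a list of 50 ribosome biogenesis genes had PAC in 92.0% and RRPE in 96.0% of promoters. RRPE cores are rich in A and T, and base composition was not matched between the lists. A match is a description of the letters and does not show binding.

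**Figure D1:**
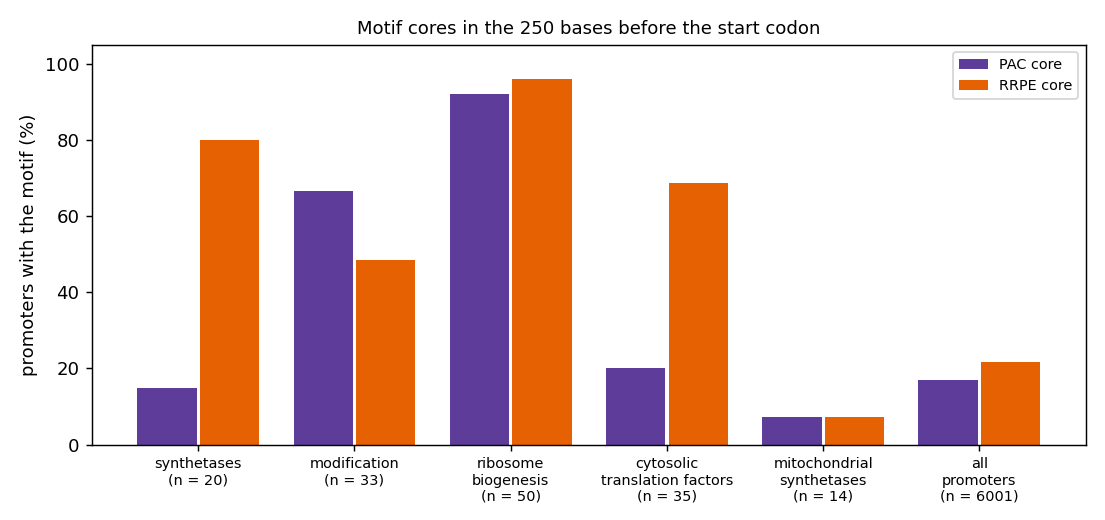
Share of promoters, in percent, with the PAC core (purple) or the RRPE core (orange) in the 250 bases before the start codon, by gene list, with the number of promoters under each name. PAC stands in 15% of synthetase and 66.7% of modification promoters, and RRPE in 80.0% and 48.5%, against 17.0% and 21.7% of all promoters.

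The classes also differed in read count. The median read count in experiment 1, which the authors give per gene, had a class median of 89 for synthetases and 16.5 for modification enzymes, against 19 for all genes. Synthetases ranged from 25 reads for the alanyl-tRNA synthetase gene ALA1 to 264.5 for the threonyl-tRNA synthetase gene THS1, and modification genes from 0.5 for PUS2 to 39.5. The ranges meet only between 25 and 39.5 reads. Per kilobase of gene, the read count had a median of 48.6 for synthetases and 10.2 for modification enzymes, against 16.4 for genes with a known length. The highest members per kilobase were the seryl-tRNA synthetase gene SES1 (173), THS1 (120) and the tyrosyl-tRNA synthetase gene TYS1 (114). Among modification genes the highest was TRM112 (63.7), whose product is the shared partner of several methyltransferases. At 20 reads or more stood all 20 synthetases but 11 of 33 modification genes, so scores of the modification genes rest on fewer reads. Read counts of the other series were not used here, and the depth of each library is unknown.

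In the elutriated, arrested cells both classes stood above most genes. Of the 53 members 35 exceeded the median gene in each of the 3 experiments, and 0 fell short of it in each. Over all 5771 genes scored in the 3 experiments the share above throughout was 22.3%, and the share below throughout was 22.5%. The 35 comprised 14 of 20 synthetases and 21 of 33 modification genes. Synthetases had class medians at the percentiles 82.8, 81.7 and 64.5 in experiments 1, 2 and 3, and modification genes at 79.8, 82.3 and 82.5. In experiment 3, which reached the largest cells, synthetases thus stood closer to the median gene than modification genes did. All 20 synthetases lay above the median gene in experiment 1, 18 in experiment 2 and 15 in experiment 3. Of the 33 modification genes 27, 32 and 26 did. Set against genes of like read count, 32 members lay above throughout, 11 synthetases and 21 modification genes. In experiment 3 alone 11 of 20 synthetases and 26 of 33 modification genes then did, beside 3106 of 6216 genes in all. The synthetases' share was thus near that of all genes there. The share of all genes above throughout on that measure was not computed.

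No member passed the test across the 3 experiments. By limma's one-sample moderated test on the score over the median gene, with Benjamini-Hochberg adjustment over 5771 genes, 0 members and 0 genes in all (0% of those tested) reached an adjusted p of 0.05, and the lowest adjusted p of a member was 0.460. At an unadjusted p under 0.05 stood 14 members, all of them higher than the median gene, which is 14 of 53 beside 5.27% of all genes that were higher, and 8.99% that were higher or lower, at that p. The 14 included DED81, MES1, CDC60, HTS1 and KRS1 among synthetases and TRM11, TRM8, DUS3, DUS4, PUS4, ELP2, ELP3 and IKI1 among modification genes. Without experiment 1 limma put 6 members there, beside 4.47% of all genes that were higher. Without experiment 2 it put 2 of 53 members there (3.77%), beside 2.62% of all genes, so the members' share was then near that of all genes. On a scale of percentiles limma again called 0 members, with 26 of 53 higher at an unadjusted p under 0.05, beside 13.3% of all genes. The values below are therefore described by their size and direction in each experiment.

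**Figure D2:**
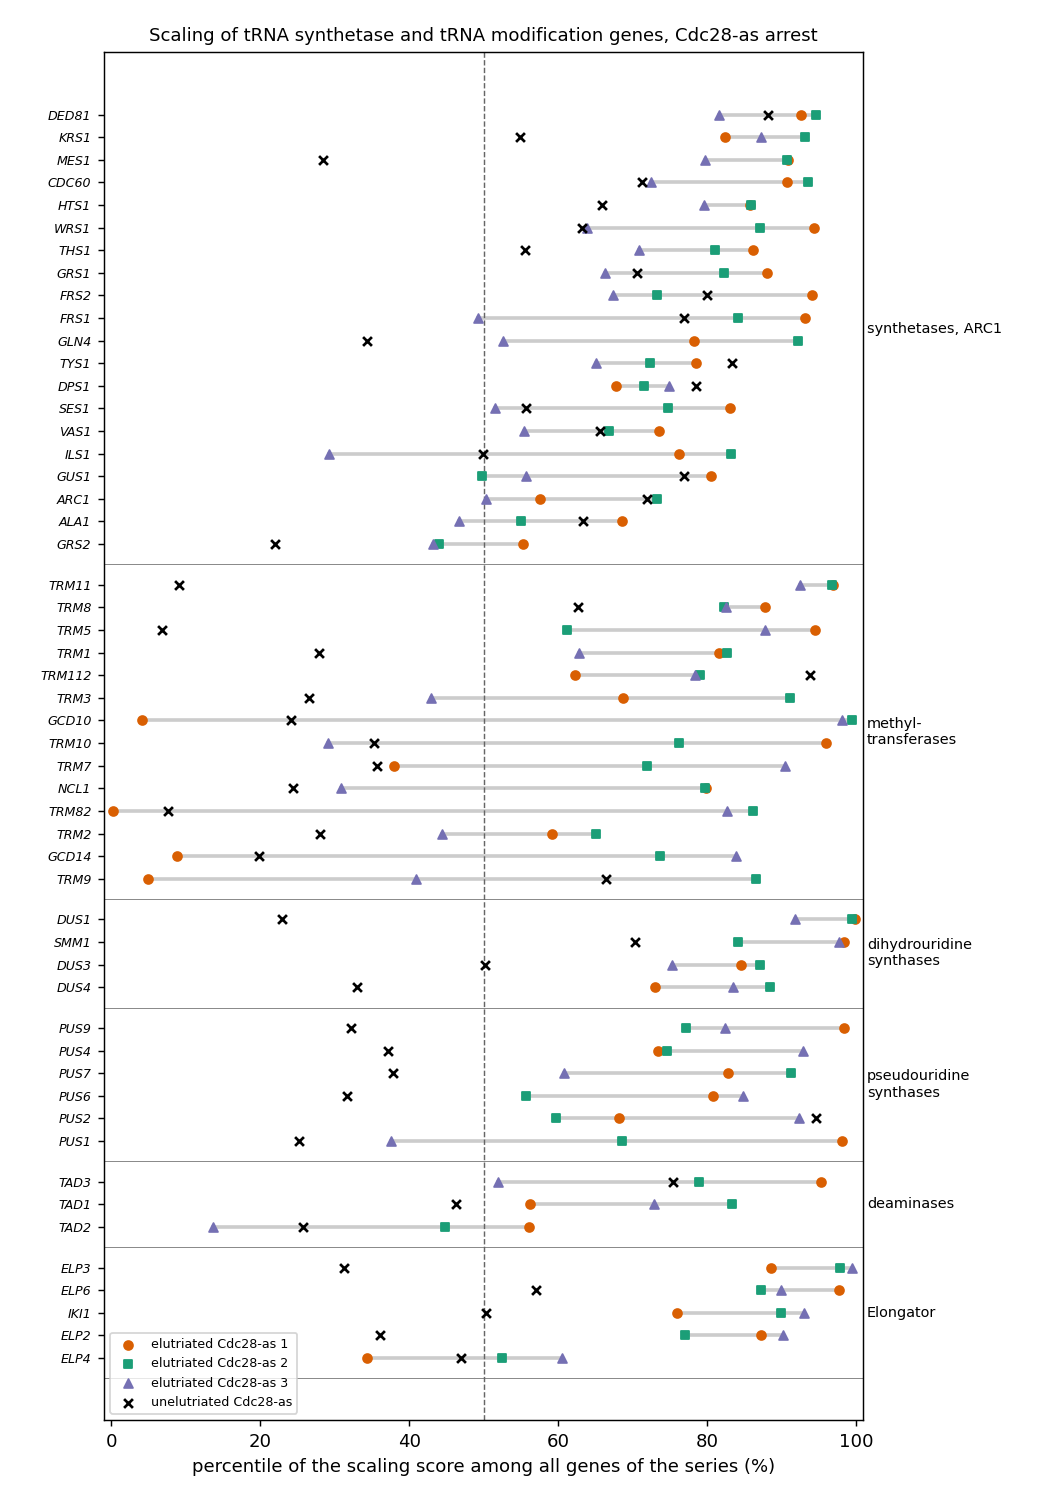
Percentile of the scaling score among all genes of the series, in percent, for 52 of the 53 members, grouped by family and ordered by the mean over the 3 elutriated experiments. Circles, squares and triangles are elutriated Cdc28-as experiments 1, 2 and 3, joined by a grey line, crosses are the unelutriated Cdc28-as series, and the dashed line is the 50th percentile. Most members lie to the right of the dashed line in elutriated cells, and most crosses of modification genes lie to its left.

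DED81 (chromosome VIII, 141894 to 143558, R64) led the synthetases, scoring 0.0963 in experiment 1, 0.0878 in experiment 2 and 0.0160 in experiment 3, all per fl. Multiplied by the size span, these slopes are gains of 3.42, 2.36 and 0.765 times the level of the first library. The mean over the median gene was 0.0600 per fl with a limma SE of 0.0180 (adjusted p = 0.460), and DED81 was above the median gene in 3 of 3 experiments. CDC60, the leucyl-tRNA synthetase gene, scored 0.0843, 0.0809 and 0.00987 per fl. WRS1, for the tryptophanyl enzyme, scored 0.115, 0.0530 and 0.00594 per fl. All 20 synthetases had their lowest score per fl in experiment 3, and 17 of them also their lowest percentile. Of the 33 modification genes 21 and 12 did. The median gene too was lowest in experiment 3, at 0.00178 per fl, and the share of all genes was not computed. KRS1, the lysyl-tRNA synthetase gene (chromosome IV, 525440 to 527215), scored 0.0486, 0.0770 and 0.0225 per fl and had the highest percentile of any synthetase in experiment 3, at 87.3. Its limma mean was 0.0427 per fl with an SE of 0.0112 (adjusted p = 0.460).

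Partners among the synthetases can be set side by side. FRS1 and FRS2 encode the beta and alpha subunits of phenylalanyl-tRNA synthetase, which act as a tetramer. FRS1 scored 0.102, 0.0456 and 0.00119 per fl and FRS2 scored 0.113, 0.0290 and 0.00736 per fl, so the subunits were alike in experiment 1 and FRS1 fell just under the median gene in experiment 3. MES1 and GUS1, for the methionyl and glutamyl enzymes, form a complex with the cofactor Arc1. MES1 scored 0.0848, 0.0655 and 0.0143 per fl, GUS1 0.0440, 0.0107 and 0.00300 per fl, and ARC1 0.0124, 0.0290 and 0.00138 per fl. The members of this complex thus differed in score, with MES1 above both partners in each experiment.

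The lowest synthetase was GRS2. It is a copy of the glycyl-tRNA synthetase gene GRS1, which makes the main enzyme of cytosol and mitochondria in yeast. GRS1 scored 0.0693, 0.0416 and 0.00683 per fl at 204.5 reads, and GRS2 scored 0.0106, 0.00753 and -0.000469 per fl at 26.5 reads. The copies share sequence, and the sources used here do not say how reads matching both were counted, so these values are uncertain. ALA1, which serves cytosol and mitochondria, was the next lowest, at 0.0234, 0.0137 and 0.000516 per fl. ILS1, for the isoleucyl enzyme, had the lowest score of experiment 3 in the class, at -0.00482 per fl, after 0.0348 and 0.0436 per fl in experiments 1 and 2.

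The other synthetases lay between these ends. The histidyl gene HTS1 had 0.0587, 0.0497 and 0.0142 per fl in experiments 1, 2 and 3, and GLN4 had 0.0382, 0.0724 and 0.00210 per fl. Among the most read, the threonyl gene THS1 had 0.0608, 0.0395 and 0.00896 per fl and the seryl gene SES1 had 0.0510, 0.0303 and 0.00179 per fl. These 4 genes, like DED81, stood above the median gene throughout, SES1 by the least in experiment 3. TYS1 had 0.0386, 0.0279 and 0.00632 per fl, the aspartyl gene DPS1 0.0222, 0.0270 and 0.0111 per fl, and the valyl gene VAS1 0.03003, 0.0222 and 0.00293 per fl. These 3 were lower in experiments 1 and 2 than THS1 and still above the median gene in each experiment.

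The dihydrouridine synthases, which reduce uridines of the D loop and nearby positions, stood above the median gene in all 3 experiments in 4 of 4 cases. DUS1 (chromosome XIII, 108806 to 110077) had the highest mean score of all members, at 1.06, 0.216 and 0.0307 per fl in experiments 1, 2 and 3. Its mean is set by experiment 1, where it stood at the percentile 99.9, but it also stood at 99.4 and 91.8 in experiments 2 and 3. Its median was 19.5 reads, near the 19 of all genes, and the part of read depth in its score was not tested. SMM1, also known as DUS2, scored 0.233, 0.0452 and 0.0666 per fl. DUS3 scored 0.0553, 0.0523 and 0.0114 per fl and DUS4 scored 0.0293, 0.0568 and 0.0181 per fl. The lowest percentile of any of the 4 in these experiments was 73.1.

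Elongator adds side chains to the wobble uridine of the anticodon, and 5 of its 6 subunit genes lay above the median gene throughout. ELP3 (chromosome XVI, 384773 to 386446), for the catalytic subunit, scored 0.0713, 0.138 and 0.144 per fl in experiments 1, 2 and 3, at the percentiles 88.6, 97.8 and 99.5. It had the lowest unadjusted p of the group, with a limma mean of 0.111 per fl, an SE of 0.0185 and an adjusted p of 0.460. ELP6, of the accessory ring, scored 0.195, 0.0533 and 0.0264 per fl. Its ring partner IKI1, which encodes Elp5, scored 0.0343, 0.0625 and 0.0341 per fl, but ELP4 of the same ring scored -0.00232, 0.0120 and 0.00483 per fl. In the core, ELP2 scored 0.0663, 0.0329 and 0.0270 per fl. ELP4 was thus the one subunit below the median gene in any of the 3 experiments, namely experiment 1.

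The pseudouridine synthases turn uridine into its isomer. Here 5 of 6 lay above the median gene throughout. PUS9, for a mitochondrial enzyme, scored 0.228, 0.0334 and 0.0169 per fl, and PUS1, whose enzyme acts at several sites, scored 0.213, 0.0242 and -0.00221 per fl. PUS7 scored 0.0498, 0.0676 and 0.00495 per fl. PUS4, for the enzyme of the T loop, was the most even, at 0.0298, 0.0302 and 0.0335 per fl. PUS6 scored 0.0442, 0.0142 and 0.0197 per fl. PUS2 scored 0.0230, 0.0169 and 0.0322 per fl at 0.5 reads, so its scores rest on very few reads.

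The methyltransferases were the most mixed family, with 5 of 14 above the median gene throughout and 0 below throughout. TRM11 (chromosome XV, 85456 to 86757), for a guanosine methyltransferase, led them with 0.164, 0.116 and 0.0323 per fl. Its limma mean was 0.0976 per fl with an SE of 0.0276 (adjusted p = 0.460). Its partner gene TRM112 scored lower, at 0.0165, 0.0360 and 0.0135 per fl, and TRM9, another gene whose enzyme needs Trm112, scored -0.0253, 0.0511 and -0.00113 per fl. TRM5, for the enzyme that methylates guanosine next to the anticodon, scored 0.116, 0.0180 and 0.0235 per fl at 5 reads. TRM10 scored 0.141, 0.0321 and -0.00488 per fl.

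The other methyltransferase genes had smaller scores in experiment 1 than TRM5. TRM1, for the dimethylguanosine enzyme, had 0.0465, 0.0425 and 0.00555 per fl in experiments 1, 2 and 3 and was above the median gene in each. The ribose methyltransferase genes TRM3 and TRM7 had 0.0235, 0.0673 and -0.000606 per fl and -0.000524, 0.0274 and 0.0275 per fl. NCL1 had 0.0422, 0.0371 and -0.00437 per fl, and TRM2, for the methyluridine enzyme of the T loop, had 0.0139, 0.0209 and -0.000109 per fl. TRM3, NCL1 and TRM2 thus lay above the median gene in experiments 1 and 2 and below it in experiment 3, and TRM7 lay below it in experiment 1 alone.

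In the complexes of Trm8 with Trm82 and of Gcd10 with Gcd14, 3 of the 4 subunit genes were low in experiment 1. TRM8 and TRM82 encode the catalytic and the accessory subunit of the 7-methylguanosine enzyme. TRM8 scored 0.0677, 0.0417 and 0.0169 per fl, and TRM82 scored -0.0781, 0.0503 and 0.0172 per fl. The partners were close in experiments 2 and 3 and on opposite sides of the median gene in experiment 1. GCD10 and GCD14 encode the subunits of the 1-methyladenosine enzyme. GCD10 scored -0.0270, 0.218 and 0.0717 per fl, and GCD14 scored -0.0198, 0.0294 and 0.0187 per fl. Both were low in experiment 1 alone. The scores of TRM82, TRM9, GCD10 and GCD14 in experiment 1 lie below -0.0197 per fl, the slope of a gene seen in the first library alone. Their medians in that experiment were 9.5, 10.5, 12.5 and 9 reads.

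Deaminases turn adenosine into inosine. TAD2 and TAD3 encode a pair that acts at the wobble position. TAD2 scored 0.0111, 0.00800 and -0.0107 per fl and TAD3 scored 0.132, 0.0356 and 0.00190 per fl, with medians of 7.5 and 8.5 reads, so the partners differed most in experiment 1. TAD3 overlaps the gene YLR315W, and without knowing if strand was used in counting, the reads of the pair cannot be told apart. TAD1, for the enzyme next to the anticodon of alanine tRNA, scored 0.0114, 0.0437 and 0.0100 per fl.

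Without elutriation the classes parted. In the unelutriated Cdc28-as series 17 of 20 synthetases lay above the median gene, and 24 of 33 modification genes lay below it, where 50% of all genes lie on either side. The class medians were -0.0163 per fl for synthetases and -0.0243 per fl for modification genes, at the percentiles 65.8 and 33.0. The synthetase minus modification difference of medians was 0.00763, -0.00121 and -0.0108 per fl in elutriated experiments 1, 2 and 3, against 0.00805 per fl without elutriation. The mean of the 3 elutriated values was -0.00146 ± 0.00923 per fl (SD, n = 3 experiments), so in elutriated cells the classes did not differ beyond the spread between experiments, and the mean changed sign without experiment 3, to 0.00321 per fl. Against genes of like read count the differences were 0.000642, 0.00212 and -0.0125 per fl in experiments 1, 2 and 3, so that of experiment 2 changed sign. The unelutriated design was run as 1 series, so the difference between designs was not tested.

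**Figure D3:**
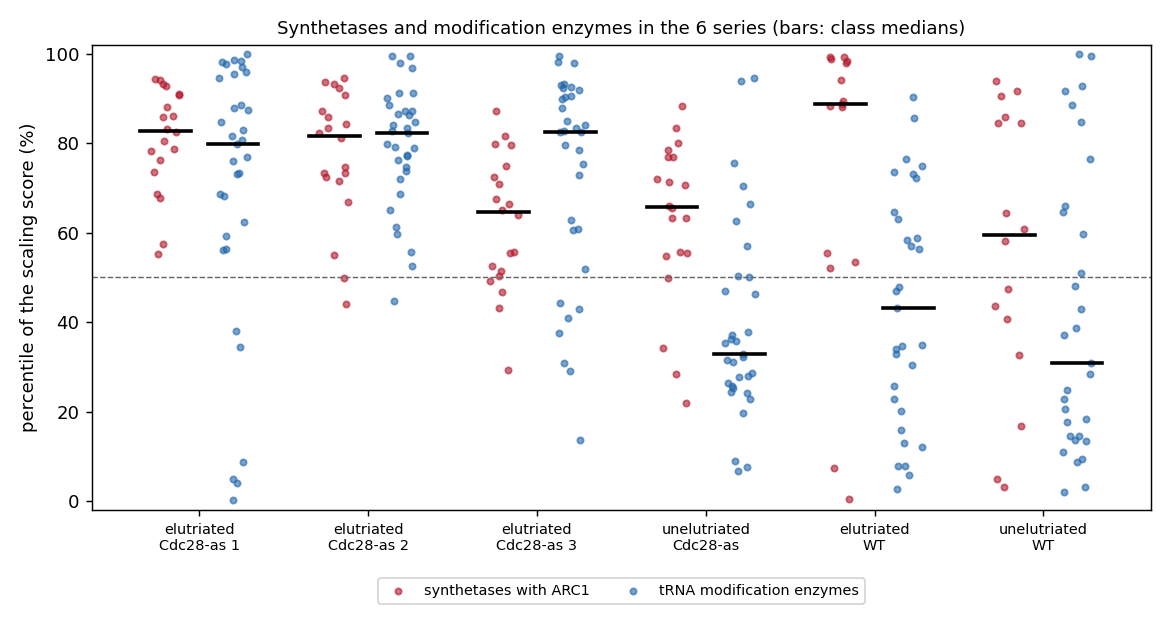
Percentile of the scaling score among all genes of each series, in percent, for synthetases with ARC1 (red, left of each pair) and tRNA modification enzymes (blue, right), 1 point per gene. Black bars are class medians and the dashed line is the 50th percentile. Synthetase and modification medians lie close together in elutriated Cdc28-as experiments 1 and 2, at 64.5 and 82.5 in experiment 3, at 65.8 and 33.0 in the unelutriated Cdc28-as series, and farthest apart in elutriated WT cells, at 88.7 and 43.2.

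All 53 members scored below 0 in the unelutriated arrest, as did most genes, whose upper quartile was -0.0138 per fl. Members are therefore set against the median gene of -0.0202 per fl. DED81 was the highest synthetase there at -0.00832 per fl, followed by TYS1 at -0.0106 per fl. GRS2 at -0.0278, MES1 at -0.0256 and GLN4, for the glutaminyl enzyme, at -0.0240 per fl were the 3 synthetases below the median gene. Among modification genes TRM5 at -0.0382, TRM82 at -0.0369 and TRM11 at -0.0350 per fl were lowest. TRM112 at -0.00269 per fl and PUS2 at -0.00158 per fl were the highest members of the group. DUS1, the leading gene in elutriated cells, scored -0.0274 per fl, at the percentile 22.9. ELP3 scored -0.0248, ELP6 -0.0185, IKI1 -0.0200 and ELP4 -0.0209 per fl, and 2 of the 6 Elongator genes lay above the median gene.

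Partners also parted or stayed together in this series. Of the complex of MES1, GUS1 and ARC1, GUS1 had -0.0132 and ARC1 -0.0146 per fl, above the median gene. MES1 lay below it and below both partners, whereas it stood above both in each elutriated experiment. FRS1 had -0.0132 and FRS2 -0.0122 per fl, a close pair, while GRS1 had -0.0150 and GRS2 -0.0278 per fl. GCD10 had -0.0270 and GCD14 -0.0286 per fl, and both lay below the median gene. TRM8 had -0.0171 per fl, above it, where its partner TRM82 was among the lowest. TAD3 had -0.0136 per fl and TAD2 -0.0265 per fl, on either side of the median gene, with TAD1 at -0.0211 per fl. CDC60 had -0.0148, WRS1 -0.0170 and ALA1 -0.0170 per fl, all above it. Of the remaining dihydrouridine genes SMM1 had -0.0151, DUS3 -0.0201 and DUS4 -0.0243 per fl, so SMM1 and DUS3 stood above and DUS4 below. PUS9 had -0.0245, PUS1 -0.0266, PUS7 -0.0232, PUS4 -0.0233 and PUS6 -0.0247 per fl, all below the median gene. TRM10 had -0.0237 per fl and TRM9 -0.0161 per fl, below and above it. ELP2 had -0.0235 per fl, below it like ELP3.

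Above the median gene in all 3 elutriated experiments and below it in the unelutriated arrest were 15 members, namely 2 synthetases and 13 modification genes, where 9.19% of all genes show this order. Above it in all 4 Cdc28-as series were 20 members, 12 synthetases and 8 modification genes, where 13.1% of all genes do. No member lay below it in all 4, where 13.4% of genes do. The 8 modification genes were TRM8, TRM112, DUS3, SMM1, PUS2, TAD3, ELP6 and IKI1. The split is thus between classes and also runs through each modification family, in part on weak values. In the unelutriated arrest PUS2, at 0.5 reads, was the only pseudouridine gene above the median gene. TAD3, at 8.5 reads and overlapping YLR315W, was the only deaminase gene above it. DUS3 and IKI1 exceeded it there by only 9.8e-05 and 0.000122 per fl.

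Read count moved with the classes, so the unelutriated split was also viewed at like depth. In the highest eighth of genes by read count the median gene scored -0.0167 per fl, and in the other eighths between -0.0212 and -0.0197 per fl. The highest eighth held 11 synthetases and 0 modification genes. Against the median gene of their own eighth, 13 of 20 synthetases and 11 of 33 modification genes stood higher in the unelutriated arrest. Of all genes 3322 of 6649 did. The difference of class medians was then 0.00617 per fl. The 11 modification genes with 20 reads or more had a median percentile of 37.8, where the 1360 scored genes with 20 to 40 reads had 46.8. Synthetases in that range were only 3, too few for a class value.

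By class medians the ribosome biogenesis list stood on the same sides of the median gene as the modification genes in the 4 Cdc28-as series. In the unelutriated arrest it lay farther below. In elutriated WT cells the lists lay on opposite sides, at median percentiles of 60.9 for ribosome biogenesis and 43.2 for modification genes. The lists differed in read count, with medians of 39.25 and 16.5 reads. Against genes of like read count 24 of 46 and 14 of 31 scored genes stood higher in that series, beside 3168 of 6341 genes in all. Of 50 ribosome biogenesis genes 48 lay below the median gene in the unelutriated arrest, at a median percentile of 10.9, and 35 lay above it in all 3 elutriated experiments. Without elutriation modification genes had a median score of -0.0243 per fl, against -0.0333 per fl for the ribosome biogenesis genes. UTP6, for a small-subunit processome protein, scored 0.423, 0.215 and 0.0214 per fl in elutriated experiments 1, 2 and 3 and -0.0387 per fl without elutriation. UTP4, of the same particle, was the lowest of that list in elutriated cells, at -0.0485, 0.0835 and -0.00253 per fl. Cytosolic translation factors, with RRPE in 68.6% and PAC in 20% of promoters, stood at a median percentile of 54.9 without elutriation, with 16 of 35 above the median gene in all 3 elutriated experiments. The highest of them was NIP1, of initiation factor eIF3, at 0.135, 0.104 and 0.00196 per fl, and the lowest was CAM1, of an elongation factor, at 0.00983, -0.00744 and 0.000290 per fl.

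The motifs were set beside the unelutriated scores within the group. Of 22 modification genes with a PAC core 15 lay below the median gene, at a median percentile of 34.0, and of 11 without one 9 did, at 33.0. Modification genes with and without PAC thus stood at close percentiles in that series. Of 16 with an RRPE core 14 lay below, at a median percentile of 31.4, and of 17 without one 10 did, at 46.3. The 10 with both stood at 28.2, against 25.4 for the 396 genes of the genome with both and a score, and 49.8 for the 901 with RRPE alone. Synthetases with RRPE and no PAC numbered 15 and stood at 66.0, with 2 of them below the median gene. The 6 modification genes with that same pattern stood at 33.5, with 5 of them below it. The 5 modification genes with neither motif stood at 33.0. The classes thus differed also among genes with RRPE alone. These shares rest on few genes and are given without a test.

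WT cells are labelled by hours, so their scores are set beside those of Cdc28-as cells and not compared in size. In the elutriated WT control synthetases had a median of 4.35 per hour and modification genes of 0.0843 per hour, at the percentiles 88.7 and 43.2. A score over 1 per hour was held by 10 of 15 scored synthetases and by 2 of 31 scored modification genes, TRM2 at 5.46 and PUS1 at 2.96 per hour. Over all genes 23% passed that value, and 36.6% of genes with 20 reads or more did. The cytosolic translation factors were like the synthetases here, with 22 of 33 scored genes over 1 per hour and a median percentile of 84.4. GUS1 scored 53.7, FRS1 53.3, GRS1 40.2, ALA1 33.5 and THS1 27.2 per hour, the highest scores of the group in this series. WRS1 at -0.552 and GRS2 at -0.175 per hour were the synthetases below the median gene of 0.136 per hour. DED81 scored 4.35, ARC1 4.18, FRS2 4.06, TRM11 -0.0499, DUS1 0.229, SMM1 0.651 and ELP6 -0.274 per hour.

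Read count moved strongly with the scores of this WT series. The median gene scored 2.22 per hour in the highest eighth of genes by reads and 0.0522 per hour in the lowest. Against the median gene of their own eighth the class medians differed by 2.64 per hour. On that measure 10 of 15 synthetases and 14 of 31 modification genes were higher, beside 3168 of 6341 genes in all. The modification genes' share was thus near that of all genes. The part of read depth in the class difference was not tested. The table has no score in this series for 5 synthetases, namely CDC60, GLN4, HTS1, ILS1 and MES1, nor for the modification genes ELP3 and TRM9.

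**Figure D4:**
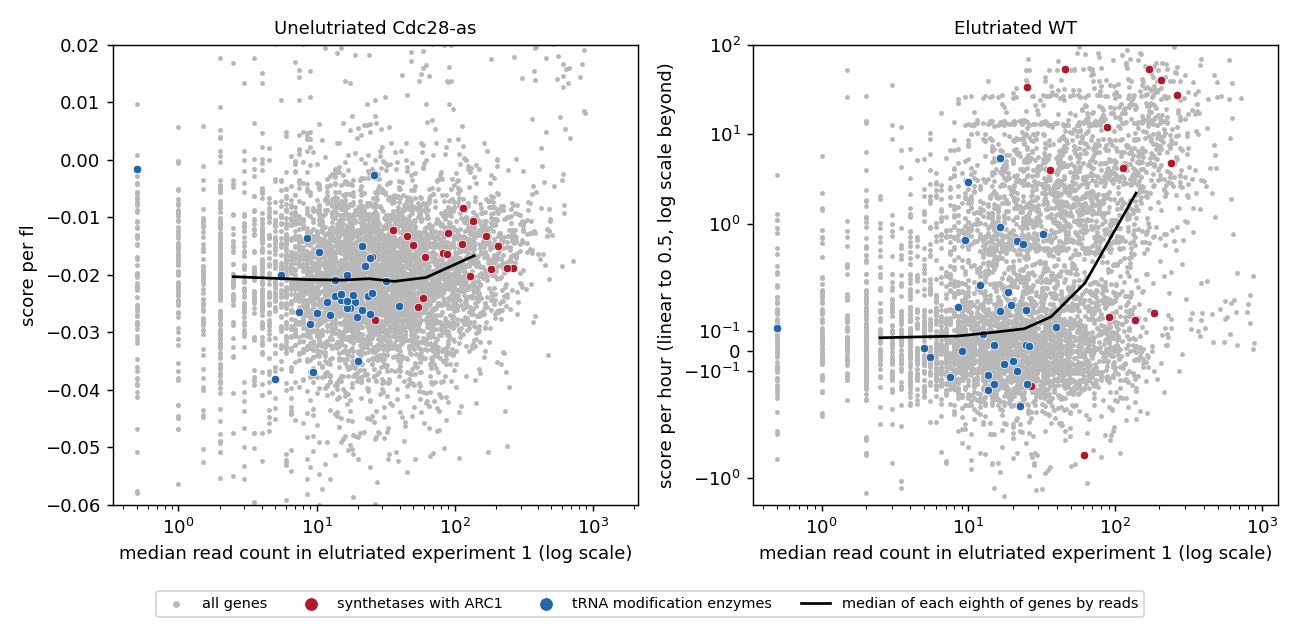
Scaling score against the median read count in elutriated experiment 1 (log scale) for the unelutriated Cdc28-as series (left, per fl) and the elutriated WT control (right, per hour, linear to 0.5 and log beyond). Grey points are all genes, red synthetases with ARC1, blue modification enzymes, and the line joins medians of eighths of genes by read count; 933 genes on the left and 805 on the right lie outside the axes or have 0 reads. The line is near flat on the left and climbs to 2.22 per hour on the right.

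Among the other modification genes of elutriated WT cells, GCD10 had 0.0843, GCD14 -0.000154, TRM8 0.204 and TRM82 0.673 per hour. TRM10 had -0.121, TRM5 0.0168 and TRM112 0.0260 per hour, below the median gene. DUS3 had 0.201 and DUS4 0.0307 per hour. PUS9 had 0.934, PUS6 0.329, PUS2 0.113, PUS4 -0.166 and PUS7 -0.168 per hour, so the family was split about the median gene. TAD1, TAD3 and TAD2 had 0.771, 0.220 and -0.130 per hour. Of Elongator, ELP2 had 0.297 per hour, above the median gene, and IKI1 -0.0300 and ELP4 -0.198 per hour, below it.

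In the unelutriated WT control the class medians were -0.0163 per hour for synthetases and -0.0853 per hour for modification genes, at the percentiles 59.5 and 30.8. Of 31 scored modification genes 20 lay below the median gene of -0.0390 per hour, and of 16 scored synthetases 7 did. The lowest were NCL1, for a cytosine methyltransferase, at -0.241, KRS1 at -0.206 and TRM9 at -0.205 per hour. PUS7 at 2.80 and TRM2 at 0.777 per hour stood far above the other members. The score of PUS7 was the highest of all genes in this series, while in elutriated WT cells PUS7 scored -0.168 per hour. By class medians synthetases thus stood above modification genes in both WT series, elutriated and unelutriated, as in the unelutriated Cdc28-as series. With class means the difference in unelutriated WT cells turned to -0.0586 per hour, against 0.0690 per hour with medians.

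In that unelutriated WT series DED81 had 0.130 per hour and FRS1 0.0766 per hour, both above the median gene, and FRS2 had -0.0450, GRS1 -0.0539, WRS1 -0.0606, GLN4 -0.0806 and GRS2 -0.122 per hour, all below it. GUS1 at 0.0843, ARC1 at -0.00412 and ALA1 at -0.0194 per hour lay above. TRM11 had -0.132, GCD10 -0.117, TRM112 -0.0853 and TRM82 -0.0686 per hour, below it, whereas TRM5 had 0.180, GCD14 0.105, TRM10 0.0349 and TRM8 -0.0150 per hour, above it. DUS1 had 0.153, DUS3 0.0771, DUS4 -0.00353 and SMM1 -0.0557 per hour, so SMM1 was the one dihydrouridine gene below. Apart from PUS7 the pseudouridine genes lay below, with PUS2 at -0.0431, PUS9 at -0.101, PUS4 at -0.128, PUS1 at -0.129 and PUS6 at -0.153 per hour. TAD3 had 0.000483, TAD2 -0.0666 and TAD1 -0.111 per hour. ELP4 had -0.0373, ELP2 -0.0906, IKI1 -0.106 and ELP6 -0.131 per hour, with ELP4 just above the median gene.

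Other genes that act on tRNA were listed for comparison. The genes of 3 more cytosolic synthetases, listed as YDR341C, YNL247W and YHR020W for the arginyl, cysteinyl and prolyl enzymes, all lay above the median gene in the 4 Cdc28-as series. By the mean over the elutriated experiments YNL247W scored highest, at 0.205, 0.0418 and 0.0259 per fl in elutriated experiments 1, 2 and 3, and YHR020W lowest, at 0.0221, 0.0191 and 0.0220 per fl. YDR341C, at 0.0581, 0.0516 and 0.00721 per fl, was the highest of the 3 in experiment 2 and the lowest in experiment 3. Unlike most synthetases of the group, 2 of these 3 had both PAC and RRPE in their promoters, and 2 had the Gcn4 core. The 14 mitochondrial synthetase genes, which serve translation inside the organelle, had 7 above the median gene in all 4 and 0 below. DIA4, for the mitochondrial seryl enzyme, led them at 0.374, 0.0455 and 0.0242 per fl, and MSK1, for the lysyl enzyme, was lowest at 0.00319, 0.0316 and -0.0158 per fl. Their promoters had PAC and RRPE in 7.14% each. In the unelutriated arrest 12 of the 14 lay above the median gene.

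Genes that cut, splice, complete and export tRNA numbered 20, with 8 above the median gene in all 3 elutriated experiments and 0 below. SEN15, of the splicing endonuclease, scored 0.492, 0.0702 and 0.0169 per fl with 6.5 reads, and RPR2, of RNase P, scored 0.02995, -0.0219 and -0.0199 per fl. Of 32 other modification genes scored throughout, 10 lay above and 2 below. RTT10, a partner in ribose methylation of the anticodon loop, scored 0.252, 0.0792 and 0.0600 per fl. PUS5, one of the 2 below, scored -0.00603, -0.00615 and -0.00704 per fl. It encodes a pseudouridine synthase of mitochondrial ribosomal RNA, so this list is not of tRNA enzymes alone. In the unelutriated arrest 12 of the 20 processing and export genes lay below the median gene, at a median percentile of 41.8. Of the 36 other modification genes 20 lay above it there, at a median percentile of 53.8.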

How the data were processed

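The authors deposited 1 table of scaling scores, 1 score per gene and series, with a rank by the experiment 1 score, which was not used. The submitters' processing notes name Bowtie2 and R64. Neither the counting step, its strand setting and depth normalization nor any use of Candida reads is stated there. The read count is a signal that the authors deposited as a median in experiment 1. It is not whole for 2779 genes, and its making is not described. The members and lists were chosen with earlier results of these data known.

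For each elutriated experiment the median over 5771 genes scored in all 3 was taken off, and limma (3.58.1, R 4.3.3) tested the mean against 0, at 0.05 after Benjamini-Hochberg adjustment. The step was tested on simulated data. Of the listed genes 6022 matched an R64 locus tag, among them all 53 members. Percentiles were taken within each column. Motifs were searched on both strands of the 250 bases before each start codon in R64, for protein-coding genes of the nuclear genome; 10 windows of members reach into a neighbouring gene. Scores of every series are given for the 4 highest and 2 lowest members of each family by mean over the elutriated experiments, for paralogues and complex partners, and for the 2 members per family that parted most between designs; 1 member is in the counts but not reported here by itself. Groups are the source names of the labels. Alternatives covered centring, scale, read filters, experiments left out and promoter length.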

Additional observations from a re-analysis of the deposited data

Results flagged for a closer look

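tRNA modification genes stood on opposite sides of the median gene in the elutriated and the unelutriated Cdc28-as arrest. Their class median lay above the median gene in each of the 3 elutriated experiments and at -0.00416 per fl relative to it in the unelutriated series. The difference was not tested, since the unelutriated design was run as 1 series.

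The same order was seen in 15 members, 14 of them named here, each above the median gene in 3 of 3 elutriated experiments. Relative to the median gene of the unelutriated series, the methyltransferase genes TRM5, TRM11 and TRM1 scored -0.018, -0.0148 and -0.00563 per fl. The dihydrouridine synthase genes DUS1 and DUS4 scored -0.00724 and -0.00416 per fl. The pseudouridine synthase genes PUS6, PUS9, PUS4 and PUS7 scored -0.0045, -0.00436, -0.00312 and -0.00298 per fl. Among Elongator genes ELP3 scored -0.00462 and ELP2 -0.00334 per fl, and the deaminase gene TAD1 scored -0.000881 per fl. Of the synthetases, MES1 scored -0.00544 and GLN4 -0.00379 per fl. None of these single differences was tested.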

How the results depend on the processing

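No paired analysis was possible because each series has 1 score per gene and no value per library. limma called 0 members and 0 genes in each of its 9 alternatives, with 2 to 26 members and 154 to 1577 genes at an unadjusted p under 0.05, so the counts over members and over all genes moved together between the extremes. Leaving out an experiment gave 36 to 44 members above the median gene in the others (15 to 18 synthetases, 21 to 26 modification genes), beside 31.0% to 32.2% of all genes. It moved the mean class difference over the elutriated experiments to between -0.00601 and 0.00321 per fl. With class means in place of medians the synthetase minus modification difference was -0.0340, -0.0112, 15.4 and -0.0586 in elutriated Cdc28-as experiments 1 and 2 (per fl) and in elutriated and unelutriated WT (per hour). The cause was not tested. At like read count the difference was 0.000642 and 0.00212 per fl in elutriated Cdc28-as experiments 1 and 2 (0.00763 and -0.00121 otherwise), 2.64 per hour in elutriated WT and 0.0397 per hour in unelutriated WT, where members with 20 reads or more gave 0.105 per hour. With genes of at least 10 reads, 5 modification genes lay above the median gene in the unelutriated arrest. In 500 bases before the start codon 7 of 20 synthetase promoters (35%) and 24 of 33 modification promoters held a PAC core, beside 28.2% of all, so the synthetases' share lay above that of all promoters there and below it at 250 bases. Of 89 alternatives to the main counts and differences 80 were labelled as unchanged. Counts, and differences outside the elutriated Cdc28-as experiments, had to stay within 1.5 times, and a count of 0 had to stay 0. Elutriated Cdc28-as differences had to move by less than their SD of 0.00923 per fl. That SD exceeds the differences of experiments 1 and 2, so a change of sign could pass there. On the percentile scale only the sign had to hold. Depth per library is unknown, so counting error could not be given. Like-read, read-filtered unelutriated and promoter-length alternatives were chosen after seeing the data.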

Other observations

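Some members share an intergenic stretch with a divergent neighbour, and these neighbours were picked after their values were seen. GCD10 lies 327 bases from the divergent gene NOP2, for a ribosomal RNA methyltransferase. GCD10 scored -0.0270, 0.218 and 0.0717 per fl in elutriated Cdc28-as experiments 1, 2 and 3, and NOP2 scored 0.0353, 0.00787 and 0.00158 per fl, so the pair differed in each. PUS1 lies 345 bases from NIP7, a 60S assembly factor gene. PUS1 scored 0.213, 0.0242 and -0.00221 per fl, and NIP7 scored 0.0582, 0.0451 and 0.0148 per fl. TRM5 lies 222 bases from RRP4, an exosome gene, which scored 0.0668, 0.0705 and 0.00507 per fl. The asparaginyl-tRNA synthetase gene DED81 and YHR020W, the prolyl-tRNA synthetase gene, are divergent across 437 bases. Both stood high in the unelutriated arrest, at -0.00832 and -0.00655 per fl.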
